A study of Mus musculus with 2 samples.

Results

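The 8 genes described here, Bcl6, Rbpj, Id1, Id2, Id3, Klf2, Klf4 and Arid5a, encode nuclear factors grouped here as repressors of osteoclast differentiation. That role is known to differing degrees, and ARID5A is best known for another. The genes were taken by symbol from the deposited tables, and all 8 were found among the 16614 genes listed. The tables hold 1 library of Foxo3 KO cells and 1 library of wild-type (WT) cells, both from C57BL/6 bone marrow that was cultured with the growth factor M-CSF for 3 days to give macrophages and then treated with RANKL, the cytokine that turns macrophages into osteoclasts, for 2 days. The labels do not say how the Foxo3 allele was made, nor the age or number of the mice. Values are FPKM, fragments scaled to both transcript length and library size, so levels can be compared between genes. With 1 library per genotype there is no replicate error and no p-value, and every difference describes these 2 libraries, not the genotypes.

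Osteoclast formation starts from a macrophage precursor in which repressors keep osteoclast genes silent. RANKL induces NFATc1, the master activator of the programme, and Blimp1, the product of Prdm1, which represses the genes of repressors such as BCL6 and IRF8. BCL6 is a zinc finger repressor that recruits corepressor complexes, RBP-J is the DNA-binding factor of Notch signalling, and the ID proteins lack a DNA-binding region and hold other helix-loop-helix factors off DNA. KLF2 and KLF4 are Krüppel-like zinc finger factors that restrain activation of monocytes and vessel cells. ARID5A is best known as an RNA-binding protein that stabilises the mRNA of the cytokine IL-6. FoxO3, a forkhead transcription factor, and its relatives are known in blood cells to activate Bcl6 and Klf2 and to repress Id1.

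Foxo3 itself stood at 0.548 FPKM in the Foxo3 KO library, against 10.3 FPKM in the WT library, which is 5.33% of the WT value. The KO library listed 2629 genes at 0 and the WT library 2904. From the values of genes with a few fragments, the KO library was estimated to be 1.38 times as deep as the WT library. The cultures carried abundant osteoclast transcripts: Acp5, the osteoclast acid phosphatase gene, read 8636 FPKM in the KO library and 7737 FPKM in the WT library, and Ctsk, which encodes cathepsin K, read 6862 FPKM in the KO and 6106 FPKM in the WT library. Mmp9, a matrix metalloproteinase gene, had a log2 ratio of 0.22. Of 13 osteoclast markers 10 were higher in the KO library, with a median log2 ratio of 0.09. Of 12 measured macrophage markers 11 were lower, with a median of -0.25, and the 13 listed ones summed to 8353 FPKM in the KO library and 10348 FPKM in the WT library. Most of that gap in summed FPKM came from Lyz2, the abundant lysozyme gene, at 5674 FPKM in the KO library and 7501 FPKM in the WT library. Without it the sums were 2678 and 2847 FPKM and the median -0.19, and Cd68 and Csf1r, the next most abundant, stood at 98.3% and 99.6% of their WT values. Fcgr3, Mertk and Mrc1, chosen after their values were seen, stood further below WT than Lyz2 (75.6%), at 55.9%, 63.5% and 64.4%. None of those 13 was at 0. Adgre1 was not analysed here.

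Klf2 and Klf4 were farthest from equality among the 7 genes that reached 1 FPKM, in opposite directions, so their promoter windows are shown. Each runs from 250 bases before to 50 bases after the transcription start in RefSeq (GRCm38.p6), 5′ to 3′ on the gene's own strand. Capitals in the Klf2 window mark a MEF2 element, which begins 118 bases before the start, and a match to the KLF box CCACCC on the opposite strand, which begins 19 bases before it. Capitals in the Klf4 window mark E boxes (CANNTG), which begin 247 and 182 bases before the start. The Klf2 window lies on the plus strand at chr8:72318812-72319111 and the Klf4 window on the minus strand at chr4:55532426-55532725.
Klf2: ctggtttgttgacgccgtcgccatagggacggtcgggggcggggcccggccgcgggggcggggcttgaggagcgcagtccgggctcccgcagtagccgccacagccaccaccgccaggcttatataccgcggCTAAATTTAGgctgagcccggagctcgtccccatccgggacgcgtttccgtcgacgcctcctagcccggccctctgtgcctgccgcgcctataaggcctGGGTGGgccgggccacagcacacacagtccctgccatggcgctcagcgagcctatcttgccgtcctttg
Klf4: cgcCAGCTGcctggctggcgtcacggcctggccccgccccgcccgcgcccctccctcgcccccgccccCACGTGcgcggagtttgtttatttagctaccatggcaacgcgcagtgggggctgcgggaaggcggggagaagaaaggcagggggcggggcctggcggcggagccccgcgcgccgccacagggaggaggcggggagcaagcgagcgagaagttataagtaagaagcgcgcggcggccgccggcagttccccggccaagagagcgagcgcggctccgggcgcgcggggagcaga
The windows hold 69.3% G and C at Klf2 and 74.3% at Klf4, against a median of 52.7% over 32851 windows of all genes.

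RefSeq windows were found for 7 of the 8 genes, 9 windows in all. Id1 had no window, so it was not searched for any motif. The FoxO motif TGTTTAC was in 0 of the 9 windows, and 3.65% of all 32851 windows held it on either strand. Only these exact letters were searched for, so variants of the motif were not counted. The Klf4 window holds TGTTTAT, which differs in its last letter, and the share of all windows with that variant was not counted. The RBP-J motif GTGGGAA was also in 0 of the 9, against 6.38% of all windows. The KLF box CCACCC was in the windows of Id2, Id3 and Klf2 (31.5% of all windows), and the GC-rich element GGCGCC of BMP-responsive genes was in those of Id2 and Arid5a (11.9% of all). E boxes, the sites of the factors that ID proteins oppose, were in a window of 5 of the genes and in 72.3% of all windows. The palindromic SMAD motif was in none of the 9 and in 0.213% of all windows. A MEF2 element, searched for after the other results were seen, was in the Klf2 window alone among these genes and in 3.19% of all windows. These matches describe letters in a window, not bound sites.

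As a group the repressors were slightly lower in the KO library. The measure was log2(KO + 1) minus log2(WT + 1), called the log2 ratio below, and genes at 1 FPKM or more in either library were counted as measured. This held for 7 of the 8 genes, all but Id1, and for 10003 genes in all. Of the 7, 6 were lower in the KO library and 1, Klf4, was higher, while 42.4% of all measured genes were lower and 57.6% higher. The median log2 ratio was -0.11 over the 7 repressors and 0.03 over all measured genes. None of the 7 differed by 2-fold, the fixed rule of size, as 0.320% of all measured genes did, and none reached 1.5-fold. The log2 ratios ran from -0.31 to 0.32, and 97.8% of all measured genes lay within 0.5 of equality. The lower macrophage markers stand beside this, and their part in these differences was not tested. In RNA from a whole culture, fewer cells of a type and less RNA per cell cannot be told apart.

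**Figure D1:**
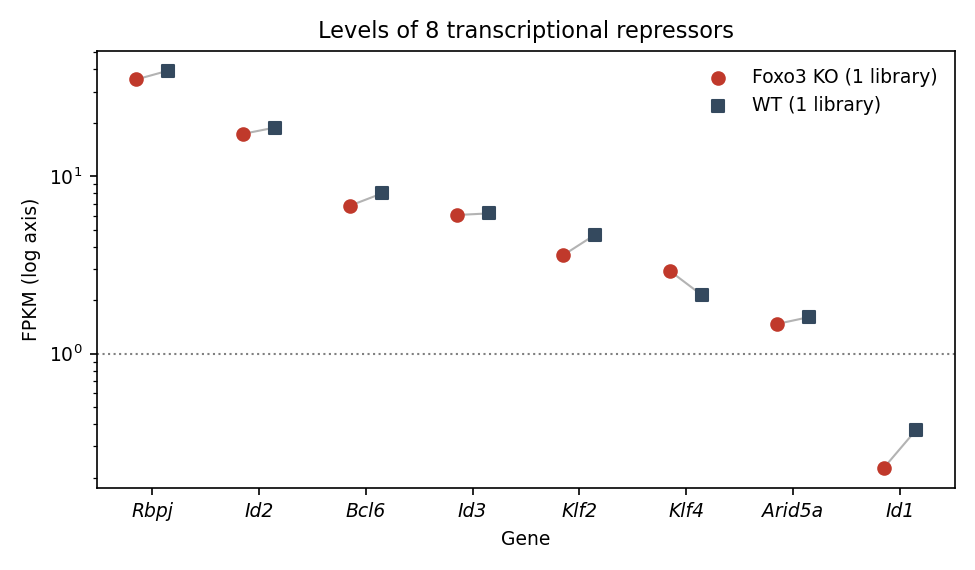
FPKM on a log axis (vertical) for each of the 8 genes (horizontal), with a circle for the Foxo3 KO library and a square for the WT library; the dotted line marks 1 FPKM. The order of the genes is the same in both libraries, from Rbpj at 35.1 FPKM in the KO and 39.4 FPKM in the WT library down to Id1 at 0.227 and 0.370 FPKM, and Klf4 alone is higher in the KO library.

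The order of levels was the same in both libraries: Rbpj, Id2, Bcl6, Id3, Klf2, Klf4, Arid5a and Id1, from high to low. The summed level of the 8 genes was 73.5 FPKM in the KO library and 81.1 FPKM in the WT library. Rbpj made up 47.7% of that sum in the KO library and 48.5% in the WT library. Without Rbpj the other 7 genes summed to 38.4 FPKM in the KO library and 41.8 FPKM in the WT library, a KO/WT ratio of 0.919, so the lower sum did not rest on Rbpj alone. Without replicates, no spread can be set against the steps between neighbours in this order.

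Bcl6 (chromosome 16, 23965052 to 23988852, minus strand, GENCODE M21 on mm10) stood at 6.82 FPKM in the KO library, against 7.99 FPKM in the WT library, 85.3% of the WT value and a log2 ratio of -0.20. It rested on an estimated 920 fragments in the KO and 780 in the WT library. The standard error that counting alone would give the log2 ratio without a pseudocount (-0.23) was 0.07. Among the 500 measured genes nearest to Bcl6 in level, 16.4% had a log2 ratio at least as far from 0. Its exons overlap those of an unnamed gene model, Gm37419, and the 2 may share reads.

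Prdm1, whose product Blimp1 represses Bcl6, was named after its values were known and stood at 64.0 FPKM in the KO library and 59.2 FPKM in the WT library, a log2 ratio of 0.11. Bcl6 thus equalled 10.6% of the Prdm1 level in the KO library and 13.5% in the WT library. The corepressors that BCL6 recruits were nearly level: of 15 measured genes, 8 had the higher value in the KO library and 7 in the WT library, with a median log2 ratio of 0.00. The corepressor genes farthest from equality at 10 FPKM or more were Bcor, at 11.2 FPKM in the KO and 9.47 FPKM in the WT library, Mta3 (log2 ratio -0.14) and Hdac5 (-0.06).

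Genes known as repressed by BCL6 went both ways. With Bcl6 and Id2 set aside, 16 were measured, 8 higher and 8 lower in the KO library, with a median of 0.00. Acp5, Ctsk and Nfatc1 (higher) and Dcstamp (lower, named for this overlap) are also osteoclast markers, so the lists share genes. Nfatc1 stood at 206.1 FPKM in the KO library and 180.8 FPKM in the WT library, a log2 ratio of 0.19. Cd44, an adhesion receptor gene, stood at 101.2 FPKM in the KO and 122.8 FPKM in the WT library. The chemokine gene Ccl3 was the 1 gene of the list past 2-fold, at 7.42 FPKM in the KO library and 17.6 FPKM in the WT library. The lower Bcl6 level stood beside targets on both sides of equality.

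Rbpj (chromosome 5, 53466152 to 53657362, plus strand) was the most abundant of the 8 genes, at 35.1 FPKM in the KO library and 39.4 FPKM in the WT library, 89.1% of the WT value. Its log2 ratio of -0.16 rested on an estimated 6600 fragments in the KO and 5400 in the WT library, for a counting error of 0.03, the smallest of the 8. Of the 500 genes nearest in level 22.6% were at least as far from equality. GENCODE lists the pseudogenes Rbpj-ps1 and Rbpj-ps3, and the labels do not say how reads shared with such copies were assigned.

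Notch receptors, ligands, RBP-J cofactors, gamma-secretase genes and RBP-J targets were more often lower: among 16 measured genes, the KO library had the lower value for 13 and the higher for 3, with a median of -0.06. Cir1, a corepressor of RBP-J, stood at 11.5 FPKM in the KO library and 14.6 FPKM in the WT library. The receptor gene Notch2 stood at 15.6 FPKM in the KO and 18.3 FPKM in the WT library, and Spen, another RBP-J corepressor, at 9.88 and 11.2 FPKM. Hes1, the standard Notch target, chosen after its values were seen, was barely detected, at 0.0642 FPKM in the KO and 0.0609 FPKM in the WT library. Rita1 was not analysed here.

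Id2 dominated the ID genes. It lies on chromosome 12 (25093799 to 25097140, minus strand) and stood at 17.3 FPKM in the KO library and 18.8 FPKM in the WT library, a log2 ratio of -0.11 with a counting error of 0.06. It supplied 73.4% of the summed ID transcripts in the KO library and 74.2% in the WT library, so the make-up of the family was nearly alike. Id3 (chromosome 4, 136143497 to 136145755, plus strand) stood at 6.04 FPKM in the KO library and 6.17 FPKM in the WT library, the smallest difference of the 8 genes (log2 ratio -0.03, counting error 0.14). Id1 (chromosome 2, 152736251 to 152737410, plus strand) stood at 0.227 FPKM in the KO library and 0.370 FPKM in the WT library. That is 61.4% of the WT value, the largest relative difference of the 8, but it rests on an estimated 9 fragments in the KO and 11 in the WT library. The counting error of 0.65 is close to the log2 ratio without a pseudocount (-0.70), so no difference in Id1 was detectable at this depth. Id4 was listed at 0 in both libraries.

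The factors that ID proteins bind or oppose split evenly, with 3 of 6 measured genes higher and 3 lower in the KO library and a median of -0.01. With Oscar, an osteoclast receptor gene under MITF control that the list also holds, the split was 4 to 3 and the median 0.01. Mitf, an osteoclast bHLH factor that ID proteins restrain, stood at 28.4 FPKM in the KO library and 33.4 FPKM in the WT library. Its relative Tfec stood at 48.9 FPKM in the KO and 43.3 FPKM in the WT library, and Oscar at 202.0 and 178.1 FPKM. Upstream, 10 BMP receptor and SMAD genes were measured, and 7 had the lower value in the KO library, with a median of -0.10. With the ligand gene Bmp2 and the pseudoreceptor gene Bambi, which the list also holds, 9 of 12 were lower. Smad1, which carries BMP signals to the ID genes, was among the 3 higher genes, at 10.1 FPKM in the KO library and 8.75 FPKM in the WT library, as was the receptor gene Acvr1 (log2 ratio 0.17). Smad4, the shared SMAD, had a log2 ratio of -0.13. Eng, which encodes the coreceptor endoglin and was chosen after its values were seen, stood at 3.63 FPKM in the KO and 6.17 FPKM in the WT library.

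**Figure D2:**
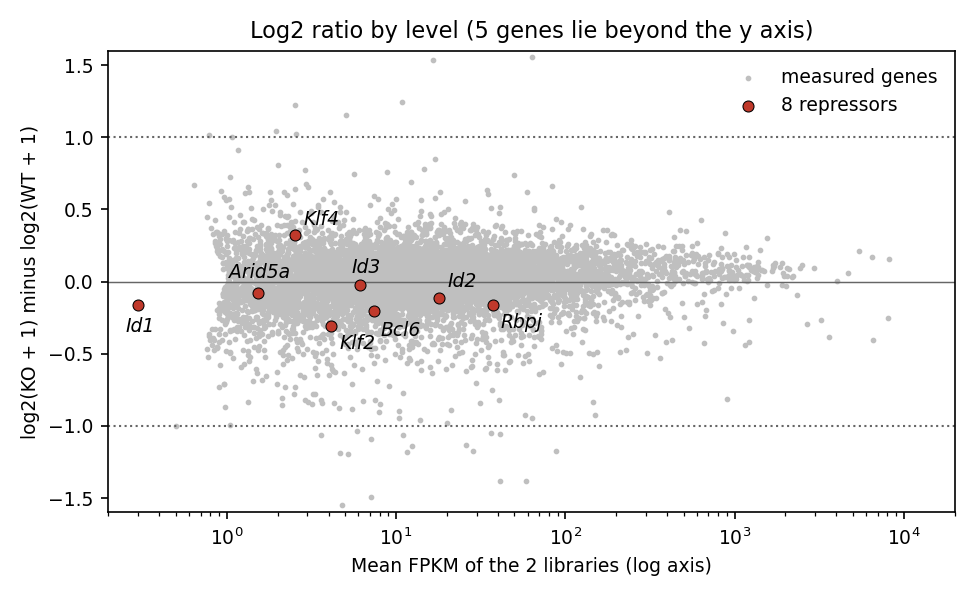
Log2 ratio of KO to WT (vertical) against the mean FPKM of the 2 libraries on a log axis (horizontal) for 10003 measured genes (grey) and the 8 repressors (red); dotted lines mark 2-fold, and 5 genes lie beyond the vertical range. The 8 genes lie between -0.31 and 0.32, and the 7 measured ones lie inside the cloud of genes of like level.

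Klf2 and Klf4, close relatives in the KLF family, differed in opposite directions. Klf2 (chromosome 8, 72319033 to 72321656, plus strand) stood at 3.59 FPKM in the KO library and 4.69 FPKM in the WT library, 76.6% of the WT value. Klf4 (chromosome 4, 55527143 to 55532466, minus strand) stood at 2.92 FPKM in the KO library and 2.13 FPKM in the WT library, 136.8% of the WT value. Their log2 ratios were -0.31 and 0.32. Without a pseudocount they were -0.39 for Klf2 and 0.45 for Klf4, with a counting error of 0.14 for each, from an estimated 160 to 300 fragments per library and gene. Among the 500 genes nearest in level, 10% lay at least as far from equality as Klf2 and 13.2% as far as Klf4.

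The sum of the pair was nearly alike, 6.51 FPKM in the KO library and 6.83 FPKM in the WT library, while Klf4 equalled 81.2% of Klf2 in the KO library and 45.4% in the WT library. Both were minor members of the family, with 5.29% of its summed FPKM in the KO library and 5.21% in the WT library. Klf6 supplied 42.5% of the family's sum in the KO library and 43.9% in the WT library, at 52.3 and 57.6 FPKM. With the pair set aside, the KO library had the lower value for 6 of 9 measured KLF genes and the higher for 3. Klf3, a repressor of the family, stood at 12.7 FPKM in the KO and 15.8 FPKM in the WT library, and Klf13 had a log2 ratio of -0.02. Klf16, chosen after its values were seen, stood at 5.30 FPKM in the KO and 3.86 FPKM in the WT library, a log2 ratio of 0.37. Klf12, Klf14 and Klf17 were listed at 0 in both libraries.

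**Figure D3:**
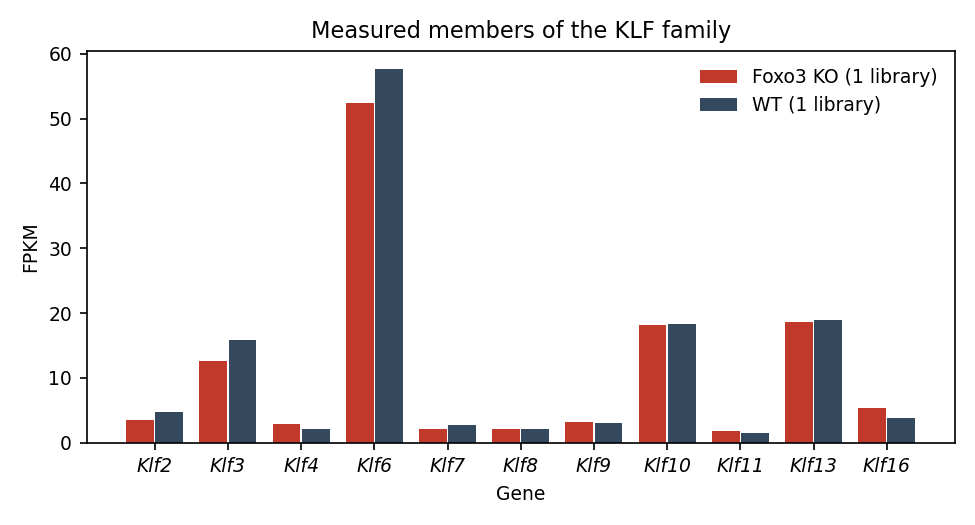
FPKM (vertical, from 0) of the 11 measured KLF genes (horizontal), with the Foxo3 KO library on the left and the WT library on the right of each pair of bars. Klf6 is the tallest pair at 52.3 FPKM in the KO and 57.6 FPKM in the WT library, Klf2 is lower and Klf4 higher in the KO library.

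The MEK5-ERK5-MEF2 module, which induces Klf2 and Klf4 in other cells, was nearly level, with 3 of 7 measured genes higher and 4 lower in the KO library and a median of -0.02. Map3k3, a kinase at its head, stood at 22.5 FPKM in the KO library and 26.6 FPKM in the WT library. Mapk7, which encodes ERK5, and Map2k5, which encodes MEK5, each had a log2 ratio of 0.07. Of 5 measured genes known as activated by KLF2 or KLF4, 4 were lower and 1 higher in the KO library, with a median of -0.24. Itgb7, an integrin gene, stood at 25.9 FPKM in the KO and 30.8 FPKM in the WT library, and the LPS coreceptor gene Cd14, also one of the macrophage markers, at 26.7 and 29.1 FPKM. S1pr1, the receptor gene for sphingosine-1-phosphate and a standard KLF2 target, was picked with its values known and stood at 6.97 FPKM in the KO library and 9.90 FPKM in the WT library. Macrophage markers were lower beside these targets, and their part was not tested.

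Arid5a (chromosome 1, 36307733 to 36324029, plus strand) stood at 1.47 FPKM in the KO library and 1.61 FPKM in the WT library, 91.5% of the WT value. Its log2 ratio was -0.08, or -0.13 without a pseudocount, where counting alone gives an error of 0.13. Of the 500 genes nearest in level 71.0% lay at least as far from equality. Il6, whose mRNA ARID5A stabilises, was named for its role with its values known and was listed at 0 in both libraries, and Stat3, another such mRNA, was level at 23.8 FPKM in each. Of the 7 measured genes of this circuit, which includes the endonuclease genes that oppose ARID5A, 4 had the higher value in the KO library and 3 in the WT library, with a median of 0.00.

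For other transcription factors known to hold back osteoclast differentiation, 6 of 8 measured genes had the lower value in the KO library, with a median of -0.14. Irf8, which encodes an interferon regulatory factor that blocks NFATc1, stood at 20.3 FPKM in the KO library and 29.0 FPKM in the WT library, a log2 ratio of -0.49. Tsc22d3, which encodes the glucocorticoid-induced leucine zipper protein, had a log2 ratio of -0.03 and stood at 97.6% of its WT value in the KO library. Zbtb7a, a relative of Bcl6, was one of the 2 higher genes, at 29.7 FPKM in the KO and 26.4 FPKM in the WT library. The factors that switch repressors off or act against them were higher in 5 of 8 measured cases, with a median of 0.06. Over all measured genes, 57.6% were higher and the median was 0.03. Nfatc1 (0.19), Tfec (0.17) and Mitf (-0.23) were the opposing factors farthest from equality. None of the genes of either list differed by 2-fold. The first list stands beside macrophage markers at a median of -0.25, whose part was not tested.

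**Figure D4:**
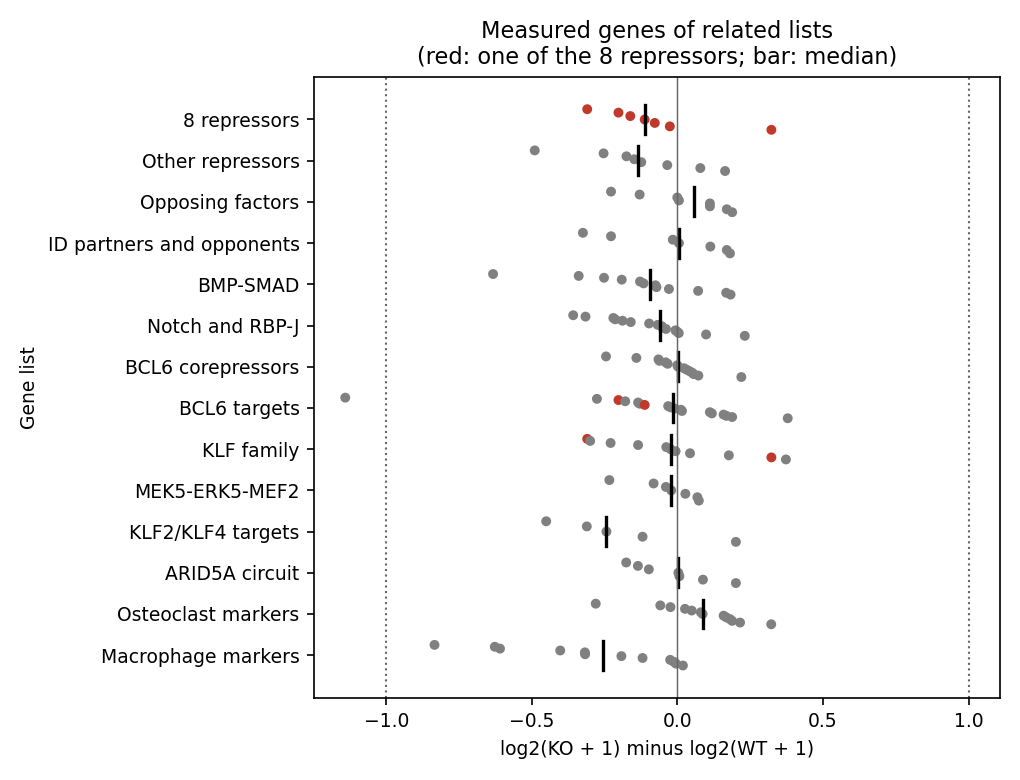
Log2 ratio of KO to WT (horizontal) for each measured gene of 14 lists (vertical), with a black bar at each list's median, red points for the 8 repressors and dotted lines at 2-fold. The repressors have a median of -0.11, other repressors -0.14, opposing factors 0.06 and macrophage markers -0.25, and Ccl3 is the 1 plotted gene past 2-fold.

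Markers of other cell types were at similar summed levels in both libraries. T, NK and B cell markers summed to 7.46 FPKM in the KO library and 7.78 FPKM in the WT library, mostly from Cd4, with Cd79b and Cd79a below 1 FPKM and Cd3e, Nkg7 and Pax5 at 0 in both. Stromal and endothelial markers, a type in which Id1, Klf2 and Klf4 are known to be abundant, summed to 10.5 FPKM in the KO library and 10.7 FPKM in the WT library, led by Col1a1, Col1a2 and Runx2, with Emcn at 0. Neutrophil markers summed to 158.0 FPKM in the KO library and 163.1 FPKM in the WT library, led by S100a8, S100a9 and Ngp. S100a8 alone, at 67.0 FPKM in the KO and 70.2 FPKM in the WT library, was above Rbpj, the most abundant of the 8 repressors.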

How the data were processed

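Poly-A RNA of 2 libraries was sequenced. The deposited values were read as FPKM made by the authors: no header or label names the unit, the values are not whole numbers, and the lowest ones above 0 are higher for short transcripts. TopHat, edgeR and mm10 appear in the submitters' processing notes, with no roles. No source used here states the quantifier, annotation or filters. A constant of 0.000001 was subtracted from every value. The log2 ratio, with a pseudocount of 1 FPKM, understates differences of low genes. The 8 genes and 19 related lists were chosen with earlier results of these data known. Named genes are the 8, Foxo3, the 3 genes of each list farthest from equality at 10 FPKM or more, the 3 most abundant of each marker list, and some listed at 0. The text marks genes chosen otherwise. One gene is not reported here and was left out of its list.

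The value of 1 fragment, in FPKM times kilobases, was taken as the lowest peak over low genes with a single GENCODE M21 transcript. Fragments per gene use the longest transcript and are approximate, and counting errors cover counting alone. Exon overlaps were looked up without regard to strand, for the 8 genes and the FoxO genes only. Steps were tested on simulated data. Software was Python 3.11.15, numpy 2.4.6, pandas 2.3.3 and matplotlib 3.10.9.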

Additional observations from a re-analysis of the deposited data

How the results depend on the processing

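Pseudocounts of 0.25 and 5, trimmed-mean scaling (KO values divided by 1.01) and centring on the median gene were tried. All 32 recomputed log2 ratios of the 8 genes stayed on the same side of 0. A pseudocount cannot change the side, and the scaling and centring lower every ratio, so only Klf4 could have changed side. None moved by more than the spread of genes of like level, though Klf4 went from 0.32 to 0.15 with a pseudocount of 5. The median over measured repressors ran from -0.14, centred on the median gene, to -0.09 with a pseudocount of 5. Rbpj and Id2 are the repressors that pass a minimum of 10 FPKM, and 0 of them were higher, since Klf4, the only higher repressor, lies below that minimum. Over all genes, 12 were 2-fold higher and 20 were 2-fold lower. Raising the pseudocount to 5 left 5 higher and 6 lower, and lowering it to 0.25 gave 39 lower. The 10 FPKM minimum left 5 higher. A limit of 1.5-fold took in 41 higher and 94 lower genes, and one of 4-fold 2 of each. The settings produce these counts by construction. No paired analysis was possible because each genotype has 1 library, and none could be left out. Depth limits Id1 most.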

Other observations

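Relatives of the repressors outside the comparisons above had medians close to equality, while single genes lay on either side of it. Of 21 measured BTB zinc finger genes related to Bcl6, 13 were higher and 8 lower in the Foxo3 KO library, with a median log2 ratio of 0.05. Zbtb18 stood at 19.5 FPKM in the KO library and 17.2 FPKM in the WT library, and Zbtb38 at 11.3 and 12.6 FPKM. Of 12 measured ARID genes other than Arid5a, 9 were lower and 3 higher, with a median of -0.03. Jarid2, a cofactor of the Polycomb complex, stood at 32.5 FPKM in the KO library and 27.6 FPKM in the WT library, while Arid5b, the nearest relative of Arid5a and chosen after its values were seen, stood at 4.89 and 6.25 FPKM. Arid1a and Kdm5c had log2 ratios of -0.04 and 0.04.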
